A study of Mus musculus with 48 samples.

Results

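Cholesterol is made in brain cells from acetyl-CoA, first through mevalonate to farnesyl diphosphate and then through squalene and lanosterol, and little of it enters from blood. Most enzymes of the pathway are transcribed under sterol regulatory element binding proteins (SREBPs), which SCAP carries out of the endoplasmic reticulum when sterols are low and which INSIG proteins hold back when sterols are high. In adult brain the largest pool of cholesterol is in myelin, made by oligodendrocytes, and astrocytes supply neurons. The genes described here are the enzymes of that pathway, the SREBPs with their regulators, a sterol carrier and 4 genes of fatty acid synthesis that SREBPs also control. They are 28 of 29 listed genes that had a probe set (the unit of the array that reports 1 transcript) with that single gene symbol in the platform annotation, of 18193 genes with such a probe set. Of several probe sets for 1 gene, the one with the highest mean over all arrays was used. Members were listed by gene function, and the list was made with earlier results of these data known. Acat2 had no probe set of that symbol and was not analysed here.

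Whole-genome Affymetrix arrays were hybridized with hippocampal RNA of 48 adult male C57BL/6J mice, and every group held 6 mice with an array each. Mice given chronic intermittent ethanol (CIE) were kept in ethanol vapor of 10 to 13 mg/l air for 16 h per day over 4 days, followed by 7 days without ethanol, for 4 such cycles in all, and each cycle began with an ethanol injection of 1.6 g/kg and the alcohol dehydrogenase inhibitor pyrazole at 1 mmol/kg. Control (Ctrl) animals were housed in air, with saline in place of the ethanol injection and with the same pyrazole, so that pyrazole was common to all 8 groups. Tissue was taken right at the end of the last chamber session (0 h) or 8 h, 72 h and 7 d later. The comparisons ask how expression in CIE mice differed from that in Ctrl mice of the same time, and how the difference moved over withdrawal. Values are log2 robust multi-array average (RMA) values, on which a difference of 1 is a doubling. Levels of different genes are not comparable on this scale. A gene was called when limma's adjusted p was 0.01 or less over all probe sets. The value depends on RNA of the whole dissected tissue, so that fewer cells of a type and less RNA per cell cannot be told apart.

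Pearson r between arrays was 0.974 to 0.998. Neuronal markers of hippocampus (10 genes, among them Prox1 and Neurod6) averaged 9.47 to 10.12 over the groups. A pair of Ctrl mice at 7 d, mice 18 and 22, stood apart. Their means over these 10 genes were 8.65 and 8.74, and their means over 4 striatal neuron markers were 8.80 and 9.17, against at most 8.04 in the other 46 mice. Some values at 7 d are therefore given without them as well. The other values at 7 d include these mice and can depend on them. For example, without them the difference between CIE and Ctrl mice at 7 d moved from -0.046 to -0.0067 for Insig1. It moved from 0.060 to 0.023 for Srebf2 and from 0.035 to 0.073 for Acaca. Exactly equal values in the same probe sets placed 47 of the 48 arrays in 6 sets that each held at most 1 array of every group, and comparisons within these sets are given where they bear on a result.

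Promoter sequences were available from RefSeq (GRCm38.p6) for 22 of the 28 members, with 250 bases before and 50 after each gene's start, and not for Sqle, Fdft1, Fdps, Stard4, Scd1 and Scd2. They were searched on both strands for 4 motifs linked to SREBP control, with TCACNCCAC as a form of the sterol regulatory element, TCACGTGA as an E-box form, CCAAT, which NF-Y binds, and GGGCGG, which Sp1 binds. CCAAT was in 21 of the members' 30 promoters (70%), against 37.4% of all 32851 promoters and 37.4% of the 18109 promoters of genes on the array. GGGCGG was in 23 of 30 (76.7%), against 35.7% of all promoters and 52.3% of those of genes on the array. TCACNCCAC was in 1 of 30, that of Hmgcs1, against 1.24% of all, and TCACGTGA was in 0 of 30, against 0.974% of all. By gene, 20 of 22 members had CCAAT and 19 of 22 had GGGCGG, against 41.1% and 38.2% of all 27025 genes with a promoter. A match is a description of the letters and not of binding, and other forms of these motifs were not searched.

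The 250 bases before the start are shown for Insig1, the only member called between CIE and Ctrl mice, at chr5:28071162-28071411, for Idi1, called within CIE mice, at chr13:8885356-8885605, and for Hmgcs1, which varied most closely with the other members and held TCACNCCAC, at chr13:119690101-119690350, all on the plus strand and 5′ to 3′. Matches to the 4 motifs on either strand are in capitals.
Insig1: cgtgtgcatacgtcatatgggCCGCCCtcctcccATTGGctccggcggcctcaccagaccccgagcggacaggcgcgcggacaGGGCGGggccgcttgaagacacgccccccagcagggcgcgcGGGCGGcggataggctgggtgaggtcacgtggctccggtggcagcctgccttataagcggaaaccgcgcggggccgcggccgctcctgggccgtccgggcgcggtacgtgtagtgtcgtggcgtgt
Idi1: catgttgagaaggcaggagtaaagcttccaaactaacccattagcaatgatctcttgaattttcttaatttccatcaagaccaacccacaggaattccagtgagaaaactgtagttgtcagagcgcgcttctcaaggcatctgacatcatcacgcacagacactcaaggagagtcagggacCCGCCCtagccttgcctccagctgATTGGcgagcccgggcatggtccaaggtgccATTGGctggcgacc
Hmgcs1: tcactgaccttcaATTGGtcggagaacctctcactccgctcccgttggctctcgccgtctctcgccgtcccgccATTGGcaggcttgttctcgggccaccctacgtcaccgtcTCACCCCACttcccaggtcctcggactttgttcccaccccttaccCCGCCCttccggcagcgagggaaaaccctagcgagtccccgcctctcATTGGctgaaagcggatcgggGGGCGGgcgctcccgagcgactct
Insig1 had 1 CCAAT match and 3 GGGCGG matches here, Idi1 had 2 and 1, and Hmgcs1 had 3 and 2 besides its single TCACNCCAC match at -137 from the start.

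Insig1, which encodes the protein that retains the SCAP-SREBP complex and is itself an SREBP target, was the only member called between CIE and Ctrl mice. It was higher in CIE mice at 8 h. The 6 CIE mice at 8 h had values of 9.93, 9.97, 9.99, 10.00, 10.09 and 10.20, and the 6 Ctrl mice had 9.43, 9.47, 9.48, 9.62, 9.68 and 9.98. The groups overlapped through a single Ctrl mouse, mouse 66, at 9.98. The means were 10.03 ± 0.10 (SD, n = 6) and 9.61 ± 0.21 (SD, n = 6). The log2 difference was 0.42 (SE 0.081, 95% confidence interval 0.26 to 0.58), a 1.34-fold higher level, with limma's adjusted p = 0.000712. Fitted to the 12 arrays of 8 h alone, it had an adjusted p = 0.0169 and was not called. Within the 6 sets of arrays the CIE array was the higher in 6 of 6, by 0.12 to 0.58. At 0 h the difference was 0.20 (SE 0.081, adjusted p = 0.147), with Ctrl mice at 9.43 to 9.85 and CIE mice at 9.69 to 10.18. At 72 h it was 0.0089 (SE 0.081, adjusted p = 0.988), and at 7 d it was -0.046 (SE 0.081, adjusted p = 0.819). In the F test over the 4 times Insig1 was again the only member called, with adjusted p = 0.00122, while 6.23% of all genes were called.

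Insig1 was also followed within the CIE mice. Its mean fell from 9.88 ± 0.17 (SD, n = 6) at 0 h to 9.48 ± 0.076 (SD, n = 6) at 72 h and 9.51 ± 0.13 (SD, n = 6) at 7 d. All 6 mice at each of these later times were below the 6 mice at 0 h. Against 0 h the change was -0.40 (SE 0.081, adjusted p = 0.00215) at 72 h and -0.37 (SE 0.081, adjusted p = 0.00534) at 7 d. Both comparisons use the same CIE mice at 0 h. Without CIE mouse 43, the highest at 0 h, the changes were -0.34 (adjusted p = 0.0121) and -0.31 (adjusted p = 0.0295), and neither was called. The 7 d call was also lost without mouse 72 of 0 h or mouse 27, 37 or 59 of 7 d, and with the sets of arrays as a block (adjusted p = 0.0159). In Ctrl mice, Insig1 averaged 9.68 at 0 h and 9.47 at 72 h. This change of -0.21 had a limma unadjusted p under 0.05 and was not called. At 7 d the change from 0 h in Ctrl mice was -0.13. The changes in CIE mice were not shown to differ from those in Ctrl mice. For 72 h against 0 h that difference had an unadjusted p above 0.05. For 7 d against 0 h it was -0.24, with an unadjusted p under 0.05, and was not called.

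Srebf1, Scd1 and Scap had the next smallest p at 8 h and did not pass the threshold. Srebf1, which encodes the SREBP of fatty acid genes, was at 9.86, 9.90, 9.92, 9.93, 10.00 and 10.02 in CIE mice and at 9.66, 9.67, 9.68, 9.70, 9.70 and 9.80 in Ctrl mice, so that every CIE mouse lay above every Ctrl mouse. The difference was 0.24 (SE 0.088, adjusted p = 0.114). Scd1, stearoyl-CoA desaturase, was at 11.40, 11.45, 11.48, 11.58, 11.61 and 11.63 in CIE mice and at 11.02, 11.14, 11.25, 11.27, 11.32 and 11.33 in Ctrl mice. These groups did not overlap either. The difference was 0.30 (SE 0.10, adjusted p = 0.0648). Because neither gene overlapped, the CIE array had to be the higher in 6 of 6 sets, and this count adds nothing. Within the sets Srebf1 differed by 0.20 to 0.32 and Scd1 by 0.084 to 0.47. Scap, the escort of SREBPs, was at 10.26 to 10.44 in CIE mice (median 10.35) and at 10.37 to 10.58 in Ctrl mice (median 10.44), a difference of -0.11 (SE 0.046, adjusted p = 0.183), with overlap. Srebf1 and Scd1 were the 2 of 28 members whose groups did not overlap at 8 h, against 3.62% of all genes.

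**Figure D1:**
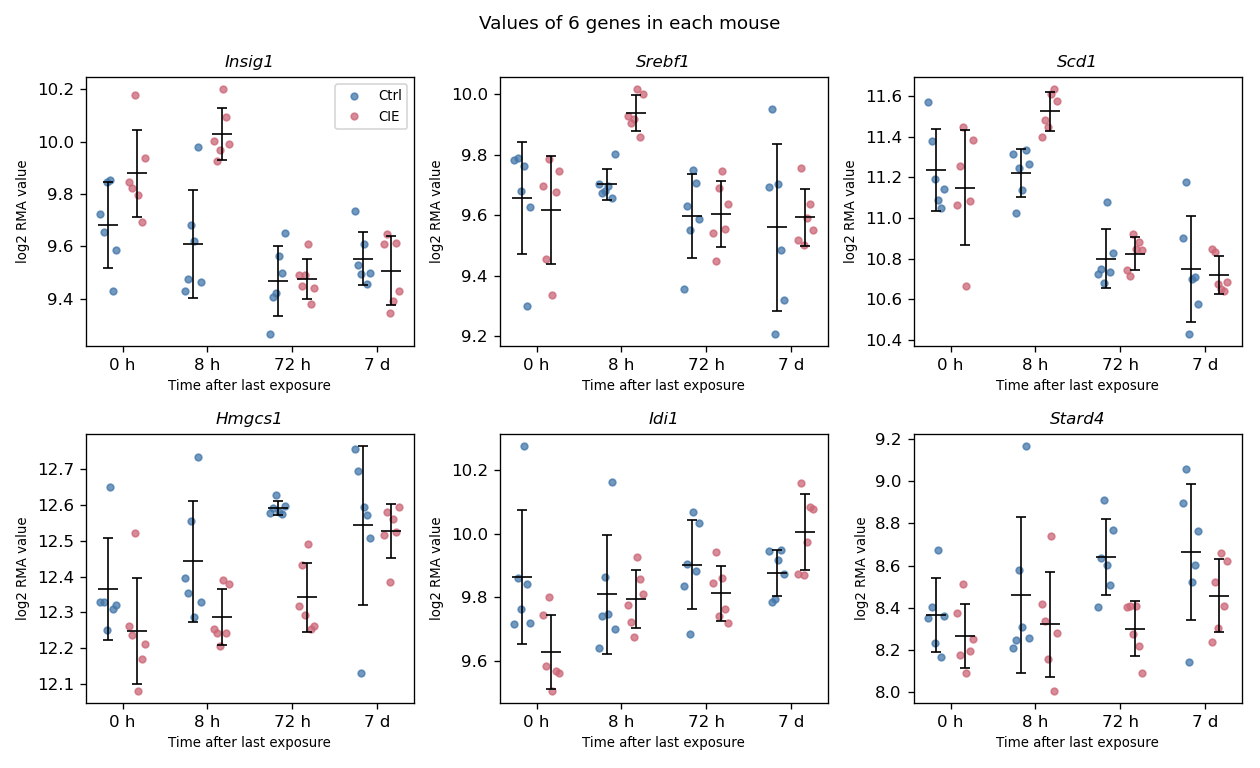
Log2 RMA values (y axis) of Insig1, Srebf1, Scd1, Hmgcs1, Idi1 and Stard4 in each of 48 mice, by time after the last exposure (x axis); points are mice, bars are the mean and SD of the 6 mice in a group, Ctrl in blue and CIE in red. The CIE mice at 8 h lie above all Ctrl mice for Srebf1 and Scd1 and above 5 of the 6 Ctrl mice for Insig1, and at 72 h the CIE mice lie below all Ctrl mice for Hmgcs1.

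Srebf2, the SREBP of cholesterol genes, had differences of 0.15 at 0 h (adjusted p = 0.295) and between -0.0078 and 0.060 at the later times. Another Srebf2 probe set, with a mean of 7.98, had differences of 0.20, 0.18, 0.094 and 0.24 at the 4 times, with adjusted p of 0.0711 or more and r = 0.372 with the one used. Insig2, a second INSIG protein, had differences of -0.043 to 0.033. Its other probe sets, with means of 9.78 and 9.54, lay lower in CIE mice. At 0 h they differed by -0.40 (adjusted p = 0.0849) and -0.22 (adjusted p = 0.0552), and at 72 h by -0.30 and -0.10. The one used was at -0.026 and -0.043 at these times, so that the size of the difference depended on the probe set. At 7 d the one used was at 0.033 and the others were at -0.22 and -0.0053. Of the fatty acid synthesis genes other than Scd1, Acaca (acetyl-CoA carboxylase) had differences of -0.095 to 0.035, Fasn (fatty acid synthase) of -0.050 to 0.040, and Scd2, the main brain desaturase gene, of -0.016 to 0.057. None of these was called at any time.

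For comparison, the counts over the members were set beside those over all genes. At 8 h, 1 of 28 members was called (3.57%), and 2.29% of all genes were. With an unadjusted p under 0.05 these were 5 of 28 members, with Hmgcs1 and Scap lower and Insig1, Srebf1 and Scd1 higher, against 18.4% of all genes. At 0 h, limma called 0 of 28 members and 1.64% of all genes, and 5 members had an unadjusted p under 0.05 (Idi1, Fdps, Cyp51 and Nsdhl lower, Insig1 higher) against 18.6% of all genes. At 7 d, limma called 0 of 28 members and 1.03% of all genes (187 genes), and 0 members had an unadjusted p under 0.05 against 18.7% of all genes. Without mice 18 and 22, limma called 0 of all genes at 7 d, and 1 member (Ebp, -0.23) and 13.7% of all genes had an unadjusted p under 0.05. At 72 h, limma called 0 of 28 members and 0.0055% of all genes, which was 1 gene. There, 7 members had an unadjusted p under 0.05, all of them lower in CIE mice, against 7.57% of all genes.

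At 72 h most members lay below 0, that is, toward lower values in CIE mice. The median log2 difference over the 28 members was -0.093, with 22 of 28 below 0 (78.6%), while the median over all genes was 0.013, with 43.4% below 0. The 6 measured enzymes of the mevalonate branch were all below 0, with a median of -0.12, and 10 of the 12 enzymes from squalene to cholesterol were, with a median of -0.16. The fatty acid synthesis genes had a median of -0.033 (3 of 4 below 0), and the regulators had -0.0096 (3 of 6 below 0). At 0 h, 8 h and 7 d the medians over the members were -0.025, -0.018 and -0.0043, against 0.041, 0.0057 and 0.028 over all genes, and without mice 18 and 22 the median at 7 d was 0.024. These medians are descriptions, and no test over the list was made. Most members varied together from mouse to mouse (median r 0.53, given below), so the 28 signs are not separate observations. The 18 sterol enzymes averaged 9.45 at 0 h and 9.49 at 72 h in Ctrl mice, and 9.39 and 9.37 in CIE mice. The 4 comparisons use separate mice.

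**Figure D2:**
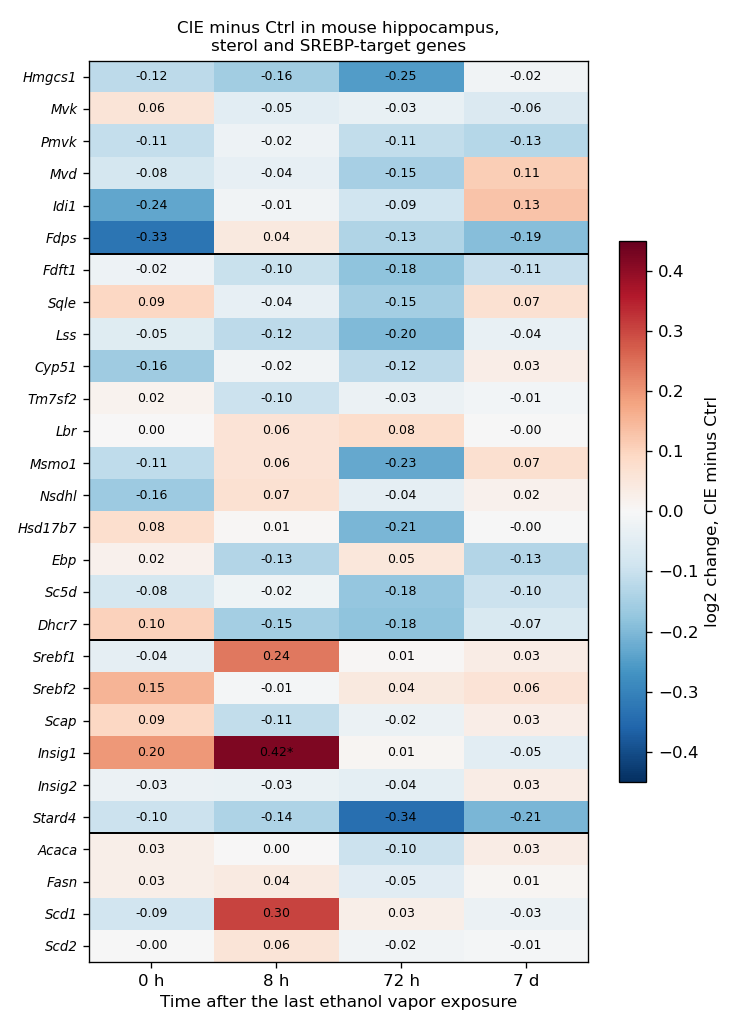
Log2 difference, CIE minus Ctrl, of each of 28 genes (rows, by role from the mevalonate branch at the top through the squalene to cholesterol branch and the regulators to fatty acid synthesis) at each time after the last exposure (columns), blue lower and red higher in CIE mice. The asterisk marks the only call, Insig1 at 8 h (0.42), and the 72 h column is blue for 22 of 28 genes.

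Hmgcs1, which encodes the synthase that makes HMG-CoA, had the smallest p at 72 h. The CIE mice were at 12.25, 12.26, 12.29, 12.32, 12.43 and 12.49, and the Ctrl mice were close together at 12.58, 12.58, 12.58, 12.59, 12.60 and 12.63. Every CIE mouse was below every Ctrl mouse. The difference was -0.25 (SE 0.077, 1.19-fold lower), with unadjusted p = 0.00214 and adjusted p = 0.208. In the F test Hmgcs1 had adjusted p = 0.0386. Msmo1, methylsterol monooxygenase, was at 10.39, 10.43, 10.43, 10.45, 10.54 and 10.54 in CIE mice and at 10.64, 10.67, 10.70, 10.71, 10.72 and 10.74 in Ctrl mice, again without overlap, for a difference of -0.23 (SE 0.083, adjusted p = 0.303). These were the 2 members whose groups did not overlap at 72 h, against 1.18% of all genes. For both, the CIE array was therefore the lower in 6 of 6 sets, which adds nothing to the lack of overlap. At 8 h, Hmgcs1 differed by -0.16 and Msmo1 by 0.060. The other 3 bright probe sets of Hmgcs1, with means of 10.33 to 11.87, differed by -0.11, -0.12 and -0.22 at 72 h, and by 0.032, 0.062 and 0.17 at 8 h, opposite there to the one used. None of them was called. At 72 h each of them overlapped between groups, with the CIE mouse higher in 7, 7 and 5 of 36 pairs.

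The other members with an unadjusted p under 0.05 at 72 h overlapped between groups. Stard4, a carrier that moves cholesterol between membranes, showed the largest difference of any member at 72 h, -0.34 (SE 0.13, adjusted p = 0.355), with CIE mice at 8.09 to 8.41 (median 8.34) and Ctrl mice at 8.41 to 8.91 (median 8.62). Hsd17b7, a sterol ketoreductase, was at 9.00 to 9.33 (median 9.17) in CIE mice and at 9.23 to 9.50 (median 9.38) in Ctrl mice, a difference of -0.21 (SE 0.074, adjusted p = 0.305). Lss, lanosterol synthase, was at 8.46 to 8.78 (median 8.61) in CIE mice and at 8.70 to 8.98 (median 8.80) in Ctrl mice, a difference of -0.20 (SE 0.076, adjusted p = 0.349). For these 3 genes the CIE array was the lower in 6 of 6 sets. Dhcr7, which reduces 7-dehydrocholesterol to cholesterol, differed by -0.18 (adjusted p = 0.53) and Sc5d, the sterol desaturase before it, by -0.18 (adjusted p = 0.464).

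The remaining enzymes had unadjusted p above 0.05 at 72 h. Fdft1 (squalene synthase) differed by -0.18, Sqle (squalene epoxidase) by -0.15, Mvd (mevalonate diphosphate decarboxylase) by -0.15, Fdps (farnesyl diphosphate synthase) by -0.13, Cyp51 (lanosterol demethylase) by -0.12 and Pmvk (phosphomevalonate kinase) by -0.11. Idi1 (isopentenyl diphosphate isomerase), Nsdhl (a sterol dehydrogenase), Mvk (mevalonate kinase) and Tm7sf2 (a sterol reductase) lay between -0.090 and -0.026. Ebp (the sterol isomerase) and Lbr (lamin B receptor, also a sterol reductase) were the enzymes above 0, at 0.052 and 0.080. None was called.

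At 0 h the 4 smallest p were those of Idi1, Fdps, Nsdhl and Insig1. Idi1 was at 9.51 to 9.80 (median 9.58) in CIE mice and at 9.72 to 10.27 (median 9.80) in Ctrl mice, a difference of -0.24 (SE 0.078, adjusted p = 0.0634). The highest Ctrl value was that of mouse 38, and without that mouse the difference was -0.15 with adjusted p = 0.198. Fdps was at 9.01 to 9.83 (median 9.37) in CIE mice and at 9.53 to 10.03 (median 9.66) in Ctrl mice, a difference of -0.33 (SE 0.13, adjusted p = 0.126). Nsdhl was at 8.49 to 8.75 (median 8.61) in CIE mice and at 8.65 to 8.93 (median 8.78) in Ctrl mice, a difference of -0.16 (SE 0.065, adjusted p = 0.133). In each of the 3 genes the groups overlapped. Idi1 and Nsdhl were lower in the CIE array in 5 of 5 sets that held both groups at 0 h, and Fdps in 4 of 5.

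At 7 d the 4 smallest p were those of Pmvk, Idi1, Stard4 and Fdps, and none was under 0.05. Pmvk was at 8.74 to 8.97 (median 8.87) in CIE mice and at 8.90 to 9.09 (median 8.99) in Ctrl mice, a difference of -0.13 (SE 0.065, adjusted p = 0.265). Idi1 was at 9.87 to 10.16 (median 10.03) in CIE mice and at 9.78 to 9.95 (median 9.89) in Ctrl mice, a difference of 0.13 (SE 0.078, adjusted p = 0.368). Stard4 was at 8.24 to 8.66 (median 8.46) in CIE mice and at 8.14 to 9.06 (median 8.68) in Ctrl mice, a difference of -0.21 (SE 0.13, adjusted p = 0.396). Fdps was at 9.24 to 9.80 (median 9.73) in CIE mice and at 9.54 to 10.05 (median 9.83) in Ctrl mice, a difference of -0.19 (SE 0.13, adjusted p = 0.433). All 4 overlapped between groups. Without mice 18 and 22, Stard4 differed by -0.049 (adjusted p = 0.912) and Fdps by -0.098 (adjusted p = 0.806), while Pmvk differed by -0.11 and Idi1 by 0.12.

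Whether the CIE effect itself differed between times was tested for each of the 6 pairs of times. Limma called 0 of 28 members in any pair, against 0.159% of all genes, and 12 members had an unadjusted p under 0.05 in at least 1 pair, against 35.7% of all genes. The smallest p was that of Insig1 for 7 d against 8 h, where the effect differed by -0.47 (SE 0.11, adjusted p = 0.0593), and for 72 h against 8 h the same gene differed by -0.41 (SE 0.11, adjusted p = 0.128). Idi1 came next, with an effect at 7 d that was above that at 0 h by 0.36 (SE 0.11, adjusted p = 0.193). These comparisons share samples with the differences at single times.

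Times were also compared within each treatment. In CIE mice, 2 of 28 members were called in at least 1 of 4 comparisons of times, against 4.54% of all genes. Insig1 was one of them, as given above. The other was Idi1, which was 9.63 ± 0.12 (SD, n = 6) at 0 h and rose to 10.01 ± 0.12 (SD, n = 6) at 7 d, with all 6 mice at 7 d (9.87 to 10.16) above all 6 at 0 h (9.51 to 9.80). The change was 0.38 (SE 0.078, 1.30-fold, adjusted p = 0.00317). The call was lost without mouse 57 or 67 of 0 h or mouse 9 or 45 of 7 d, with adjusted p of at most 0.0144. In Ctrl mice over the same interval Idi1 was at 9.86 and 9.88.

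In Ctrl mice 1 of 28 members was called between times, against 1.07% of all genes, and it was Scd1. Ctrl mice were at 11.05 to 11.57 at 0 h, at 11.02 to 11.33 at 8 h, at 10.68 to 11.08 at 72 h and at 10.43 to 11.18 at 7 d. The level fell by 0.44 from 0 h to 72 h (SE 0.10, adjusted p = 0.00948) and by 0.49 from 0 h to 7 d (SE 0.10, adjusted p = 0.00761), in mice that had received no ethanol. Both adjusted p lay close to the threshold. With the sets of arrays as a block the changes were -0.37 (adjusted p = 0.0802) and -0.42 (adjusted p = 0.0674), and without mice 18 and 22 the 7 d change was -0.63 (adjusted p = 0.000541). With 1 mouse left out at a time, the 72 h call was kept in 3 of 12 fits and lost without any 0 h mouse of 2, 12, 20 and 56 or 72 h mouse of 6, 16, 24, 52 and 68 (adjusted p up to 0.0481). The 7 d call was kept in 4 of 12 and lost without any 0 h mouse of 2, 12, 20 and 64 or 7 d mouse of 46, 54, 70 and 80 (adjusted p up to 0.0363). CIE mice had Scd1 at 11.15 ± 0.28 (SD, n = 6) at 0 h, 11.52 ± 0.095 (SD, n = 6) at 8 h, 10.83 ± 0.080 (SD, n = 6) at 72 h and 10.72 ± 0.093 (SD, n = 6) at 7 d.

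Most members varied together from mouse to mouse. After the group means were removed, each member was set against the mean of the other 27 over the 48 mice, and the median Pearson r was 0.53, whereas the median r of the 18165 other genes with the mean of the members was 0.0059. Arrays, RNA and dissection are shared by all genes of a mouse, so that r is given as a description and without a p. Hmgcs1 had the highest r, 0.865 (Spearman rho 0.82), and Stard4, Msmo1 and Fdft1 followed at 0.831, 0.818 and 0.812. Cyp51 had 0.763, Tm7sf2 0.70, Nsdhl 0.684, Idi1 0.673 and Insig1 0.666. At the other end, Srebf2 had 0.022, Lbr -0.053 and Ebp -0.071, so that Ebp and Lbr did not follow the other enzymes (0.056 for Ebp without mice 18 and 22). With the sets of arrays also removed the median r was 0.53, in Ctrl mice alone 0.54 and in CIE mice alone 0.50.

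The closest pair of members was Fdft1 and Stard4 (r = 0.886), followed by Hmgcs1 and Msmo1 (r = 0.854), Fdps and Sc5d (r = 0.818) and Hmgcs1 and Stard4 (r = 0.806). Srebf1 and Scd2 had r = 0.736, the only pair among the 12 closest that did not include a sterol enzyme. Of the 153 pairs of 18 sterol enzymes 46 had r above 0.5, and of all 378 pairs 75 had. Single mice were high for many members at once. Ctrl mouse 38 had the highest mean over the 18 sterol enzymes at 0 h (9.65, against a group mean of 9.45 ± 0.10, SD, n = 6), and Ctrl mouse 66 had the highest at 8 h (9.68, against 9.45 ± 0.12, SD, n = 6). Outside the list, the genes whose deviations followed the mean of the members most closely were Lzts2 (r = 0.791), Gng12 (r = 0.785), Pdlim2 (r = 0.78), and Idh1 (r = 0.777), over 48 mice.

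**Figure D3:**
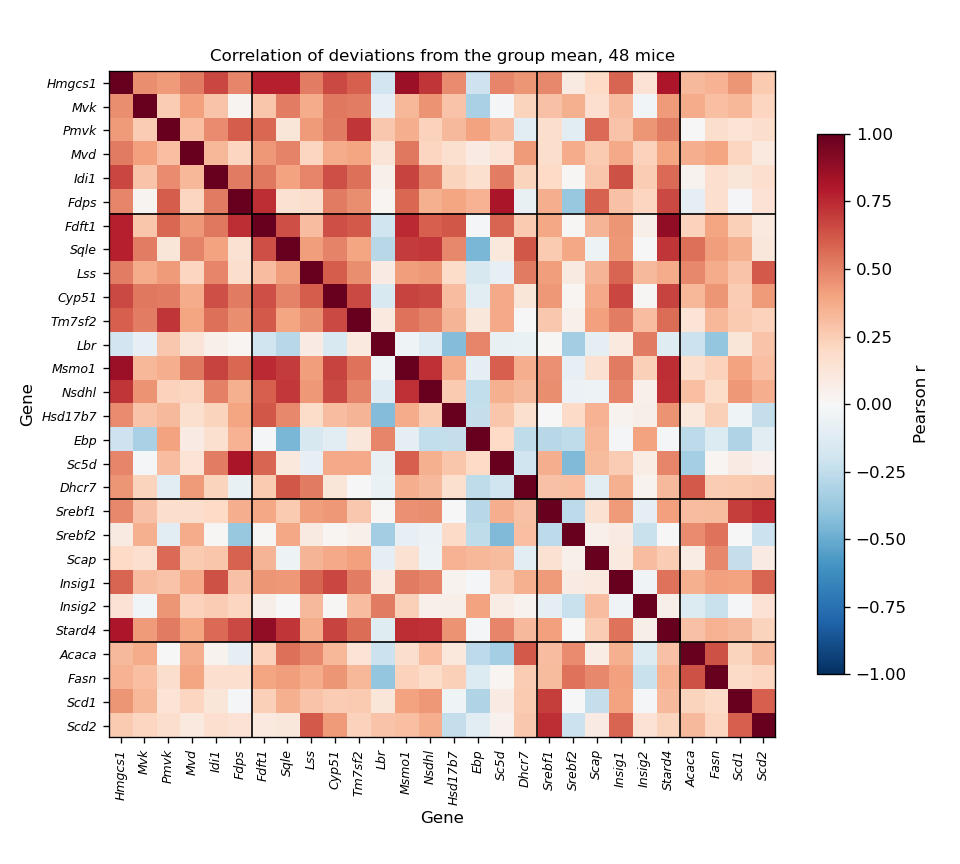
Pearson r between the deviations of each pair of the 28 genes from their group means over 48 mice, red positive and blue negative, with black lines between the mevalonate branch, the squalene to cholesterol branch, the regulators and fatty acid synthesis. Hmgcs1, Fdft1, Msmo1 and Stard4 are among the darkest rows (r of 0.735 to 0.886 among them). The rows of Lbr, Ebp and Srebf2 hold r of both signs.

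Some markers of cell types varied with the members. Over the 48 mice, the within-group deviations of the mean of the 18 sterol enzymes had r = 0.535 with the mean of 13 markers of myelinating oligodendrocytes (among them Mbp and Mog), r = 0.671 with 5 markers of oligodendrocyte precursors, r = 0.325 with 7 of microglia, r = 0.0849 with 10 of astrocytes and r = -0.464 with 10 of hippocampal neurons. Without mice 18 and 22 these were 0.50, 0.645, 0.378, 0.334 and -0.419. At 72 h 16 of the 18 sterol enzymes were below 0. So were 13 of 13 oligodendrocyte markers (median difference -0.13), 5 of 5 precursor markers (median -0.16) and 7 of 7 microglial markers (median -0.12), with 0 called in each list. Also below 0 there were 5 of 6 endothelial (median -0.099), 5 of 6 fibroblast (median -0.0997) and 7 of 10 astrocyte markers (median -0.040), against 43.4% of all genes. Of the choroid plexus, hippocampal neuron, striatal neuron and blood lists, 4 of 7, 4 of 10, 2 of 4 and 1 of 3 were below 0. At 7 d the direction turned on mice 18 and 22. With them, 13 of 13 oligodendrocyte markers were below 0 (median -0.16) and the 18 sterol enzymes averaged 9.47 in the CIE group and 9.49 in the Ctrl group. Without them, 0 of 13 were below 0 (median 0.099) and the Ctrl group averaged 9.45 for the sterol enzymes. At 8 h, where Insig1 was called, 10 of 13 were above 0 (median 0.18) and 0 were called. The part of these cell types in the results on the members was not tested.

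The mean over the 13 oligodendrocyte markers ranged from 10.09 to 10.36 over the 8 groups and over single mice from 9.78 to 11.03, the highest being Ctrl mouse 22 at 7 d. Group means ranged from 7.59 to 8.02 for oligodendrocyte precursors, 11.11 to 11.42 for 10 astrocyte markers, 9.48 to 9.77 for microglia, 8.30 to 8.62 for 6 endothelial markers, 5.61 to 6.13 for 7 choroid plexus markers, 8.01 to 8.499 for 6 meningeal fibroblast markers, 7.09 to 7.94 for striatal neurons and 4.84 to 5.18 for 3 blood markers. Called between CIE and Ctrl mice were Bmp4 higher (precursors) and Otx2 lower (choroid plexus) at 0 h, Slc1a2 higher (astrocytes) at 8 h, and Tmem119 higher (microglia), Kl higher (choroid plexus) and Drd1 lower (striatal neurons) at 7 d. Without mice 18 and 22 none of the 3 at 7 d was called, with Tmem119 at 0.30 (adjusted p = 0.125), Kl at 0.65 (adjusted p = 0.114) and Drd1 at -0.86 (adjusted p = 0.117). A called gene did not always go with its list. At 0 h 0 of 5 precursor and 3 of 7 choroid plexus markers were below 0 (medians 0.20 and 0.022). At 8 h 5 of 10 astrocyte markers were (median 0.0032). At 7 d, with all mice, 1 of 7 microglial, 2 of 7 choroid plexus and 4 of 4 striatal markers were (medians 0.25, 0.14 and -0.67). Endothelial, fibroblast, hippocampal neuron and blood lists had 0 called at each of the 4 times. Of all genes, 1.64% were called at 0 h, 2.29% at 8 h and 1.03% at 7 d.

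**Figure D4:**
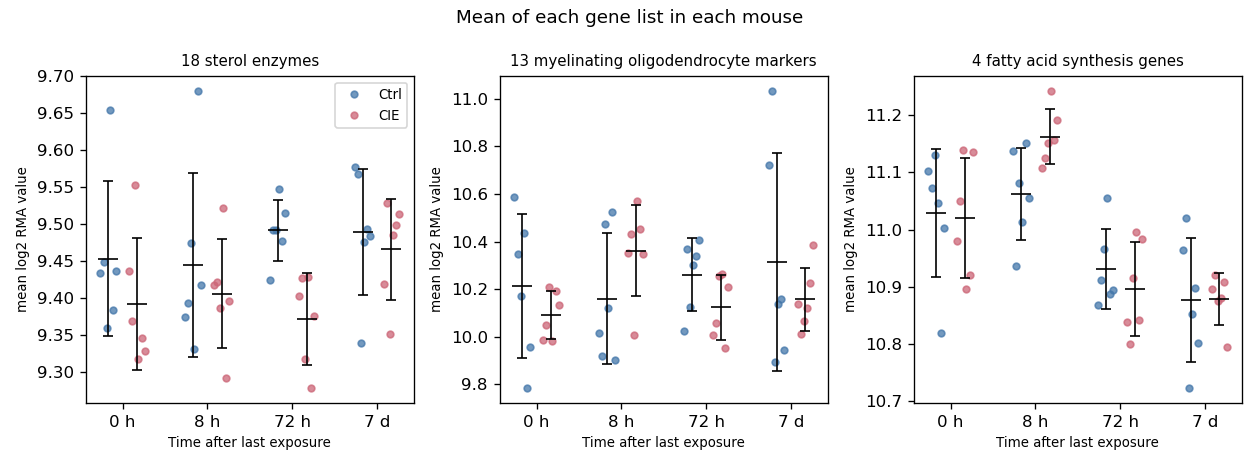
Mean log2 RMA value (y axis) in each mouse over 18 sterol enzymes, 13 markers of myelinating oligodendrocytes and 4 fatty acid synthesis genes, by time after the last exposure (x axis), Ctrl in blue and CIE in red, with the mean and SD of 6 mice. At 72 h the CIE mice average 9.37 and the Ctrl mice 9.49 for the sterol enzymes, and the highest oligodendrocyte value is that of a Ctrl mouse at 7 d (11.03).

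Genes around the pathway were taken from 3 further lists. Of 21 measured genes that are other SREBP targets or make related lipids, 1 rose at 0 h, Acsl3, an acyl-CoA synthetase (0.19, SE 0.047, adjusted p = 0.00933), and 1 fell at 8 h, Ggps1, which makes geranylgeranyl diphosphate from the same farnesyl precursor (-0.35, SE 0.071, adjusted p = 0.0013). At 8 h Acsl3 differed by 0.19 (adjusted p = 0.0109) and Nus1, a subunit of the dolichol-making enzyme, by 0.26 (adjusted p = 0.0148). At 72 h and 7 d 0 of 21 were called, with Ggps1 at -0.24 (adjusted p = 0.193) and -0.25 (adjusted p = 0.0306, and 0.12 without mice 18 and 22). Of 10 measured genes of SREBP processing and of INSIG turnover, 1 rose at 0 h, Erlin2, which takes part in sterol-dependent degradation in the endoplasmic reticulum (0.25, SE 0.058, adjusted p = 0.00614), and 0 were called at the other times. The ubiquitin ligase Rnf139 was at 0.11 at 0 h (adjusted p = 0.0683) and at 0.13 at 7 d (adjusted p = 0.0424). As background, the 0 h comparison called 1.64% of the 18193 genes and the 8 h comparison 2.29%. Whether 1 call in lists of 21 and 10 genes exceeds these shares was not tested.

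Of 18 measured genes of cholesterol efflux, turnover and liver X receptor (LXR) targets, 1 rose at 8 h, Ch25h, which makes 25-hydroxycholesterol, an oxysterol that binds INSIG proteins. Its mean was 6.07 ± 0.16 (SD, n = 6) in CIE mice and 5.37 ± 0.15 (SD, n = 6) in Ctrl mice, a difference of 0.69 (SE 0.11, adjusted p = 4.68e-05). Npc1, the lysosomal cholesterol transporter, differed by 0.30 (adjusted p = 0.0114) and Lpcat3, a phospholipid-remodelling enzyme, by 0.21 (adjusted p = 0.0116) at that time. At 7 d 1 fell, Abcg1, a sterol exporter, from 10.58 in Ctrl mice to 10.38 in CIE mice (-0.20, SE 0.043, adjusted p = 0.00461), and without mice 18 and 22 the difference was -0.19 (adjusted p = 0.0527). At 0 h and 72 h 0 of 18 were called. The share of all genes called was 2.29% at 8 h and 1.03% at 7 d.

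Other probe sets of the same genes did not always follow the one used. There were 31 of them for 18 members, and their r with the used probe set ran from -0.185 to 0.813. Between CIE and Ctrl mice at a single time, 1 of the 31 was called at 0 h and 1 at 8 h. By the F test 5 were called: a pair of Sc5d, and 1 each of Lss, Hsd17b7 and Scd2. Over all genes with 1 probe set each, 1.64% were called at 0 h, 2.29% at 8 h and 6.23% by the F test. The share over the further probe sets of all genes is not given here, so these counts have no like background. Of Hsd17b7, a probe set with a mean of 8.04 was called at 8 h, higher in CIE mice at 8.15 to 8.47 (median 8.36) than in Ctrl mice at 7.79 to 8.24 (median 7.98), by 0.34 (SE 0.083, adjusted p = 0.00815), while the probe set used, of a type that can bind several transcripts, differed by 0.0053. Of Sc5d, a dim probe set with a mean of 5.63 was called at 0 h, lower in CIE mice at 5.27 to 5.75 (median 5.50) than in Ctrl mice at 5.68 to 6.68 (median 5.90), by -0.51 (SE 0.098, adjusted p = 0.00139), while the one used differed by -0.077. A further Sc5d probe set, with a mean of 8.59, differed by 0.16 at 72 h, opposite to the one used (-0.18), and a further one of Hsd17b7, with a mean of 7.64, differed by -0.59 at 72 h (adjusted p = 0.155). Of Scd2, a probe set with a mean of 6.96 had the largest differences of any probe set of a member, -1.33 at 0 h (SE 0.36, adjusted p = 0.0193) and -1.15 at 7 d (SE 0.36, adjusted p = 0.0454). At 0 h the CIE mice were at 6.03 to 7.53 (median 6.68) and the Ctrl mice at 6.83 to 9.60 (median 8.05), a wide spread with overlap, and the Scd2 probe set used differed by -0.00050. Its F test had adjusted p = 0.00478. Of Lss, a probe set with a mean of 8.31 was lower at each of the 4 times, most at 72 h (-0.41, SE 0.12, adjusted p = 0.165), with an F test at adjusted p = 0.00609. Without mice 18 and 22 the F tests of Scd2 (adjusted p = 0.0159), Lss (adjusted p = 0.016) and Hsd17b7 (adjusted p = 0.0255) were no longer called, and the Scd2 difference at 7 d was -0.71 (adjusted p = 0.372).

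For Stard4 the other 2 probe sets differed by -0.22 and -0.36 at 72 h, and for Idi1 the other differed by -0.45 at 0 h (adjusted p = 0.0564), both in the direction of the probe set used. For Insig1, Srebf1 and the other 8 members with no further probe set of a single symbol, no such comparison could be made.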

How the data were processed

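The deposited values are log2 expression values that the authors made with RMA in the affy package: background correction and quantile normalization within each hybridization batch, a second quantile normalization over all arrays, and ComBat with the hybridization group as batch. That correction used degrees of freedom that a later fit does not deduct. The 48 arrays held 45037 probe sets, of which 34945 had a single gene symbol in the platform annotation. One limma model (limma 3.58.1, R 4.3.3) with 8 group means was fitted to all of them, p was adjusted by Benjamini and Hochberg over all probe sets, and a call needed an adjusted p of 0.01 or less, the study's threshold. Shares of all genes use 1 probe set for each of 18193 genes. The code was tested on simulated data. Full values are given for called members and for the 4 smallest p at each time. The members and gene lists were chosen with earlier results of these data known. Hybridization batches are not named in the labels, and sets of arrays were inferred from equal values. The arrays' number limits the precision. Replicates were separate mice. Alternatives covered the block, dim probe sets, other probe sets, centring, normalization, the prior, the threshold, the arrays fitted and each mouse left out.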

Additional observations from a re-analysis of the deposited data

Results flagged for a closer look

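In 15 of 224 combinations of gene and group, 1 mouse lay further from the other 5 than Dixon's limit allows. Chance gives about 5% of such combinations, that is, about 1 in 20. Ctrl mouse 38 at 0 h was the highest of its group for Hmgcs1 (12.6492), Sqle (10.0809), Idi1 (10.2742) and Fdft1 (11.6122), so that 4 of the 15 came from a single mouse. At 0 h, Srebf1 was lowest in Ctrl mouse 56 (9.29985), Tm7sf2 was highest in CIE mouse 43 (8.2229) and Fasn was lowest in CIE mouse 67 (10.3278). At 8 h, Sc5d was lowest in Ctrl mouse 4 (10.1552) and in CIE mouse 41 (10.2768), and Srebf1 was highest in Ctrl mouse 79 (9.80085). At 72 h, Fdps was lowest in Ctrl mouse 6 (9.32886), Scd1 was highest in Ctrl mouse 44 (11.0811) and Cyp51 was highest in CIE mouse 35 (9.53323). At 7 d, Dhcr7 was highest in Ctrl mouse 22 (8.84788), one of the mice that stood apart in region markers, and Scap was highest in Ctrl mouse 70 (10.5294).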

How the results depend on the processing

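Insig1 at 8 h was called in 12 of 12 fits that left out 1 mouse of that time, with a difference of 0.385 to 0.494, and with the sets of arrays as a block (adjusted p = 0.00257). With these sets as a block the members called in Ctrl mice between times numbered 0 instead of 1, and over all genes the calls between CIE and Ctrl mice fell from 298 to 72 at 0 h, from 417 to 277 at 8 h and from 187 to 63 at 7 d. With the 12 arrays of 8 h alone 0 members were called at that time, and without probe sets that can bind several transcripts 2 were, Hsd17b7 being the second. With the mean of all probe sets of a gene, 1 member was called at 0 h (Sc5d), 4 by the F test, 0 in Ctrl mice and 4 in CIE mice between times. At a threshold of 0.05 the F test called 2 members and the CIE mice 6. With probe sets of a mean of at least 7, CIE mice had 4. An alternative chosen after seeing the data, without mice 18 and 22, also gave 4 in CIE mice. With 1 mouse left out at a time, the counts ran from 1 to 2 for the F test (2 without Ctrl mouse 46 of 7 d), from 0 to 1 in Ctrl mice and from 1 to 3 in CIE mice. No called value changed its direction under the alternatives run. The causes of these shifts were not tested. For the counts of members under these alternatives the share of all genes is not given, so they cannot be set against all genes. No paired analysis was possible because each mouse has its own replicate number and none is shared between groups; the block above uses the inferred sets of arrays instead.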
